A study of Sus scrofa with 3 samples.

Results

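Chemokines and chemokine receptors were followed across visceral adipose tissue of male Wuzhishan miniature pigs that were intact (IM), castrated (CM) or castrated and given testosterone (CMT). The members were the mRNA genes whose deposited name starts as a chemokine or receptor name does (CCL, CXCL, CX3CL, XCL, CCR, CXCR, CX3CR or XCR and a number), together with ACKR1, ACKR3, ACKR4 and AMCF-II. This rule found 46 of 22826 mRNA genes, and 34570 genes were deposited in all. ACKR1 and ACKR4 were not found under those names, and their older names are followed further on. Of the members, 28 were ligands and 18 were receptors.

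All pigs were 6 to 7 months old when obtained and ate a diet rich in fat and cholesterol (HFC) for 12 weeks. IM pigs had a sham operation with skin incisions, CM pigs were gonadectomized, and CMT pigs were gonadectomized and injected each week with 10 mg/kg testosterone propionate. The tissue was retroperitoneal fat, and RNA of 4 to 6 pigs per group by the sample labels, or 4 by the methods, was mixed into 1 library per group. No group therefore has a replicate, no difference below was tested, and pigs within a pool cannot be told apart.

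Chemokines are small secreted proteins that guide the migration of leukocytes along gradients held on heparan sulfate. The CC and CXC classes are named for the spacing of the first cysteines, and the receptors are G protein-coupled receptors named for the class they bind. Atypical receptors bind chemokines without G protein signalling and remove or transport them. In fat, chemokines such as CCL2 are known for recruiting monocytes, and CXCL12 for retaining cells that carry CXCR4.

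Levels are given in UQRPKM, reads per kilobase of gene scaled by the upper quartile of each library, so genes of different length can be compared. Where 3 values or read numbers are given in a row, they stand for IM, CM and CMT in this order. Whole reads were recovered from these values and came to 14844063, 13582288 and 13449107 on mRNA genes. The members took 0.107%, 0.0948% and 0.0955% of these reads. Of the 46 members, 41 had reads in at least 1 library, and 15 had 100 reads or more in every library. The recovered reads are the smallest whole numbers that fit, so true reads can be more and intervals narrower. Each interval is an exact 95% interval from reads and covers counting error only, not variation between pigs. It treats reads as independent molecules, which reads of amplified libraries are not, so for that reason it can be too narrow. A gene was called higher or lower when the ratio reached 1.5-fold and neither library was under 1 UQRPKM.

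The labelled tissue carried its markers. ADIPOQ, which encodes adiponectin, had 74928, 69193 and 63873 UQRPKM, and PLIN1 of the lipid droplet coat had 18396, 18587 and 12504. CIDEA was listed at 0 in every library. The adipocyte list, with 9 of 11 genes deposited, summed to 134699, 129786 and 106730, so CMT was lowest. Of 8 genes compared in CMT versus CM, 0 were called higher and 2 lower, beside 9.53% and 9.97% of all mRNA genes. The lower ones were PLIN4, with 8944, 9349 and 4585 UQRPKM, and LEP, which encodes leptin, with 167, 502 and 156. Markers of other tissues stood apart in 2 libraries. The hepatocyte list, of which 18 of 19 genes were deposited, summed to 2577, 12795 and 1753 UQRPKM. Without APOA1, which was high everywhere, the sums were 37.5, 10456 and 38.6. The skeletal muscle list, with 14 of 14 genes deposited and TNNT3, CKM and MB listed at 0, summed to 104, 85.8 and 7346. The CM library thus carried liver transcripts and the CMT library muscle transcripts, and in pooled bulk RNA a change in the number of cells of a type cannot be told apart from a change in their RNA.

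The ligands ranged widely in level, and a few genes made up most of their sum. CCL14, CXCL12, CCL19 and CCL5 together held 68.2%, 58.7% and 66.1% of the summed ligand level. CCL14, a CC ligand found in plasma, had 1659, 1506 and 1516 UQRPKM. Its level was higher than that of 96.5% of the expressed mRNA genes in IM. The intervals of CCL14 in CM, from 1431 to 1584, and in CMT, from 1442 to 1592, overlapped, so their order was not resolved.

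CCL19, which guides cells that carry CCR7 to lymphoid tissue, had 1152, 1023 and 916 UQRPKM. CCL5 (RANTES), a product of T cells, had 841, 607 and 606. CCL2, the monocyte attractant, had 189, 216 and 159. All of these stayed within 1.5-fold in each comparison. In IM the order of levels was CCL14, CXCL12, CCL19, CCL5, CCL4 and ACKR3, and the counting intervals of neighbours in this order did not overlap except for those of CCL4 and ACKR3, which met between 544 and 549.

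**Figure D1:**
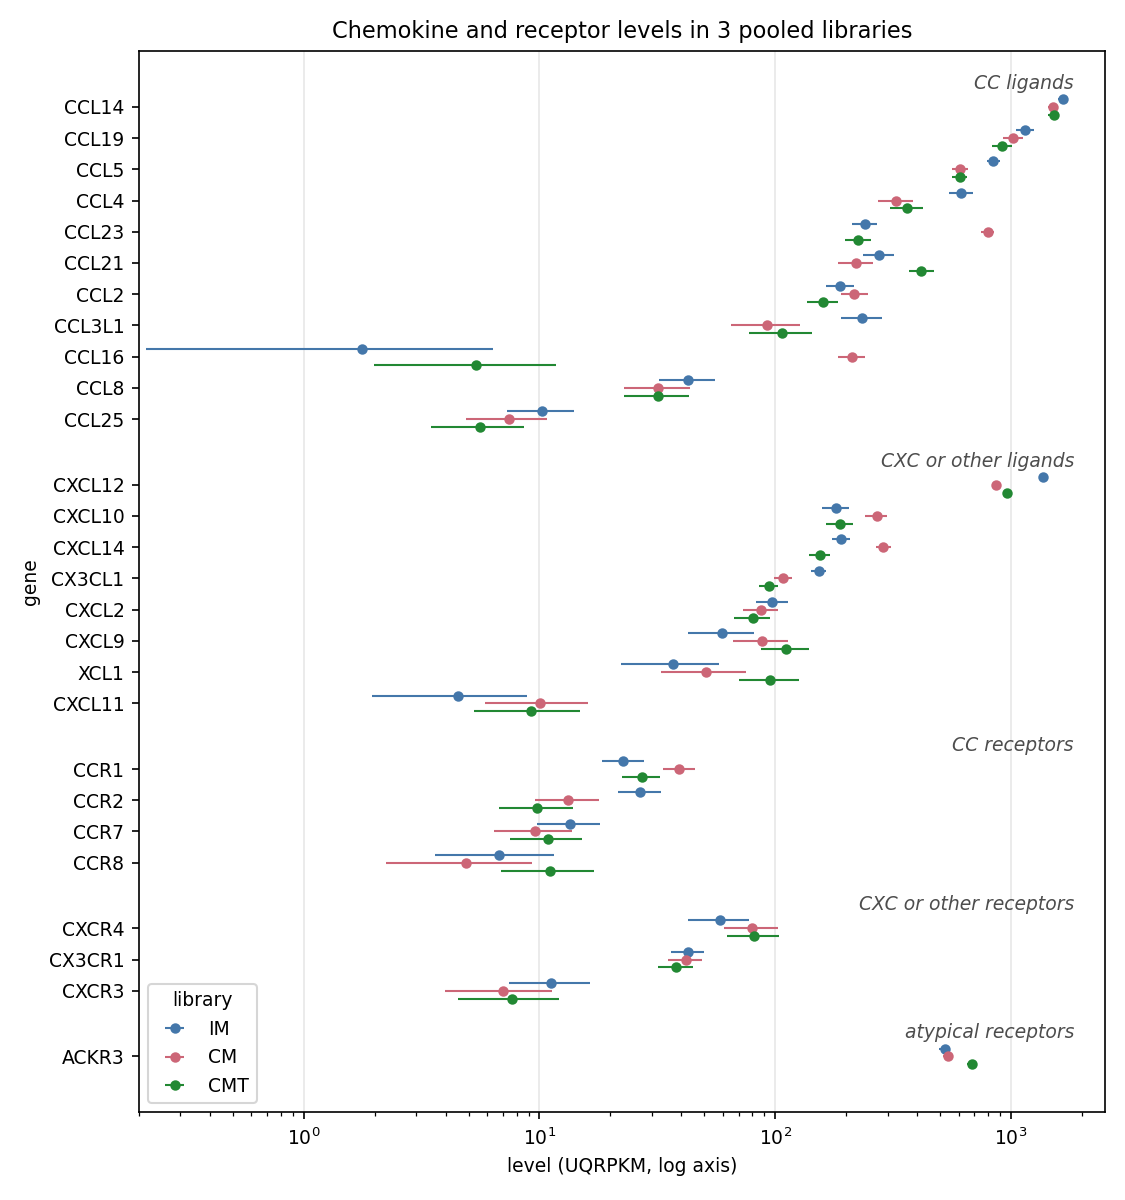
Levels of 27 members that reached 10 UQRPKM in at least 1 library, on a log axis of UQRPKM, with 1 point per library (IM blue, CM red, CMT green) and bars for the exact 95% counting interval. CCL14 lies highest in each library, followed by CXCL12 in IM and by CCL19 in CM. CCL16 stands at 211 in CM against 1.76 in IM and 5.40 in CMT, and receptors other than ACKR3 reach at most 81.3.

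In CM versus IM, 5 members were called higher and 5 lower of the 34 that had 1 UQRPKM or more in both libraries. CCL16, CCL23, CXCL14, CCR1 and CXCL11 were the higher members, and CCL3L1, CCL4, CCR2, CXCL12 and CXCR3 the lower ones. This was 14.7% of the members in each direction, beside 8.38% of all 14123 such mRNA genes called higher and 10.4% called lower. Of these, 4 higher and 4 lower members, 11.8% each, also had an interval that did not include 0, beside 5.08% and 6.65% of all mRNA genes. The exceptions were CXCL11 and CXCR3. The median log2 ratio of the members was -0.15, beside -0.06 for all mRNA genes.

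CCL16, a CC ligand known to be made mainly by liver, had 1.76, 211 and 5.40 UQRPKM. These values rest on 2, 228 and 6 reads. The CM value stood apart from both others, and its log2 ratio to IM was 6.90 (5.03 to 9.96), against -5.29 (-6.75 to -4.14) in CMT versus CM. The hepatocyte markers moved alike in these libraries. ALB, the plasma albumin, had 10, 10612 and 15 reads, and TTR, the carrier of thyroid hormone, had 5, 530 and 4. The log2 ratios of ALB and TTR in CM versus IM were 10.12 and 6.80. Of the 10 hepatocyte genes that could be compared in CM versus IM, 9 were called higher, beside 8.38% of all mRNA genes. APOA1 had a log2 ratio of -0.12. The part of liver transcripts in the CCL16 value was not tested.

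CCL23, which attracts monocytes through CCR1, had 239.5, 796 and 225 UQRPKM, from 273, 865 and 251 reads. Its level in CM was 3.32-fold that of IM, a log2 ratio of 1.73 (1.54 to 1.93), and IM and CMT differed by a log2 ratio of -0.09 (-0.34 to 0.16). CCR1, a receptor of monocytes and neutrophils, had 22.7, 39.2 and 27.2 UQRPKM. Its log2 ratio was 0.79 (0.42 to 1.16) in CM versus IM and -0.53 (-0.89 to -0.18) in CMT versus CM, the latter within 1.5-fold.

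Part of the macrophage and neutrophil lists was higher in CM. Of 15 listed macrophage genes, 12 were deposited, and 11 could be compared in CM versus IM. Of these, 5 were called higher and 0 lower, beside 8.38% and 10.4% of all mRNA genes. The list summed to 1395, 1743 and 1312 UQRPKM, and CD163 was listed at 0. EMR1, the F4/80 antigen, had 45.6, 93.6 and 30.6 UQRPKM, while CSF1R, the receptor of macrophage colony stimulating factor, had 285, 246 and 221 and CD14, the coreceptor for bacterial lipopolysaccharide, had 390.0, 395 and 339. In the neutrophil list 4 genes could be compared in CM versus IM. Of these, 3 were called higher and 1 lower, beside the same 8.38% and 10.4%. The higher ones were S100A8, S100A9 and S100A12, calcium-binding proteins of phagocytes, and S100A9 had 85.6, 1157 and 229 UQRPKM. MMP9, a matrix protease, was the lower one, with 58, 19 and 42 reads, and LTF, which encodes lactoferrin, had 13, 2 and 9 reads. The receptor CSF3R of the same list was listed at 0, and MPO and ELANE had at most 1 read. The list, with 9 of 10 genes deposited, summed to 519.8, 4886 and 977 UQRPKM, and the S100 genes made up nearly all of its sum in CM. The part of these cells, and of the liver transcripts in CM given above, in the CCL23 and CCR1 values was not tested.

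CXCL14 and CXCL10 had their highest values in CM. CXCL14, a conserved CXC ligand of epithelia and stroma, had 191, 288 and 155 UQRPKM, from 489, 702 and 388 reads. CM exceeded both others, but the ratio to IM, 1.51-fold, lay just past the threshold. Its log2 ratio was 0.59 (0.42 to 0.76) in CM versus IM and -0.90 (-1.08 to -0.71) in CMT versus CM. CXCL10, a ligand of CXCR3, had 181, 269 and 188 UQRPKM and lay just inside the threshold, with log2 ratios of 0.57 (0.33 to 0.82) and -0.52 (-0.76 to -0.28).

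CXCL9 and CXCL11 also bind CXCR3. CXCL9 had 59.7, 87.6 and 111 UQRPKM. Its log2 ratio was 0.55 (-0.06 to 1.18) in CM versus IM and 0.90 (0.32 to 1.49) in CMT versus IM. CXCL11 had 8, 17 and 16 reads, and its log2 ratio of 1.16 in CM versus IM had an interval from -0.13 to 2.58, and its ratio of -0.13 in CMT versus CM one from -1.21 to 0.95. Their receptor CXCR3, a marker of activated T cells, had 11.2, 6.98 and 7.63 UQRPKM from 27, 16 and 18 reads. It was called lower in CM versus IM, but its interval, -1.68 to 0.26, included 0. IFNG, the inducer of these ligands, had 5, 0 and 1 reads.

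The clearest lower values in CM were those of CCL4, CCL3L1, CCR2 and CXCL12. CCL4 (MIP-1 beta), a ligand made by T cells, NK cells and macrophages, had 615, 325 and 362 UQRPKM, from 274, 138 and 158 reads. CCL3L1, which belongs to the MIP-1 alpha type, had 233, 92.4 and 107, from 98, 37 and 44 reads. IM was the highest library for both genes, and CM and CMT did not differ beyond counting error. The log2 ratios in CM versus IM were -0.92 (-1.23 to -0.62) for CCL4 and -1.34 (-1.92 to -0.78) for CCL3L1. In CMT versus IM they were -0.76 (-1.06 to -0.48) and -1.13 (-1.67 to -0.60).

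CCL5 differed less than CCL4 and CCL3L1. It had a log2 ratio of -0.47 in both CM versus IM (-0.62 to -0.32) and CMT versus IM (-0.62 to -0.33), which lay within 1.5-fold. CCL4 and CCL3L1, and CCL2 and CCL8, are related but distinct genes. How reads that fit more than 1 gene were counted is not given in the sources used here. Levels of related genes are uncertain to that extent.

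TNF, a cytokine that induces many chemokines, had 58.0, 30.0 and 30.4 UQRPKM. Of the 17 genes in the list of chemokine inducers, which includes CXCR3, 13 could be compared in CM versus IM. Of these, 4 were called lower and 0 higher, beside 10.4% and 8.38% of all mRNA genes. The lower ones were TNF, IL1B, IL1A and CXCR3, and the intervals of IL1A, -1.59 to 0.06, and CXCR3 included 0. IL1B had 26, 6 and 21 reads and was called higher in CMT versus CM. The T and NK cell list summed to 1050.1, 917 and 921 UQRPKM, with 18 of 19 genes deposited and none listed at 0 in all libraries. Of 18 genes compared in CM versus IM, 0 were called higher and 3 lower, beside 8.38% and 10.4% of all mRNA genes. In CMT versus IM 1 was called higher and 5 lower, beside 8.81% and 11.9%. The lower ones in CM versus IM were GZMH, LCK and GZMB, and the interval of GZMB, -1.58 to 0.03, included 0. GZMH, a granzyme of cytotoxic cells, was furthest apart, with 62.2, 6.39 and 4.83 UQRPKM. LCK had 67.1, 30.9 and 56.1, while CD8A had 80.2, 84.1 and 82.1. The part of lymphocytes in the CCL4 and CCL3L1 values was not tested.

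CCR2, the receptor of CCL2 on monocytes, had 26.7, 13.2 and 9.81 UQRPKM, from 89, 42 and 32 reads. Both castrated groups were below IM, with log2 ratios of -1.01 (-1.58 to -0.47) in CM versus IM and -1.45 (-2.08 to -0.85) in CMT versus IM. Its ligand CCL2 did not follow this order. The log2 ratio of CCL2 was 0.19 (-0.08 to 0.47) in CM versus IM and -0.44 (-0.74 to -0.15) in CMT versus CM. CCL8, another ligand of monocyte receptors, had 42.7, 32.0 and 31.9 UQRPKM from 56, 40 and 41 reads, with all 3 intervals including 0.

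CXCL12 (SDF-1) had the most reads of any member, with 7372, 4427 and 5102. Its level was 1365, 860.0 and 964 UQRPKM, so IM was highest and the intervals of the 3 libraries did not overlap. The log2 ratio was -0.67 (-0.72 to -0.61) in CM versus IM, which passed 1.5-fold, and 0.16 (0.11 to 0.22) in CMT versus CM, which did not. Its signalling receptor CXCR4 had 58.1, 79.6 and 81.3 UQRPKM from 46, 60 and 63 reads, and its log2 ratio of 0.45 in CM versus IM had an interval from -0.13 to 1.04. Its atypical receptor ACKR3, which removes CXCL12 from the surroundings, had 523, 541 and 682 UQRPKM. ACKR3 was highest in CMT, with a log2 ratio of 0.33 (0.24 to 0.43) in CMT versus CM that stayed within 1.5-fold.

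**Figure D2:**
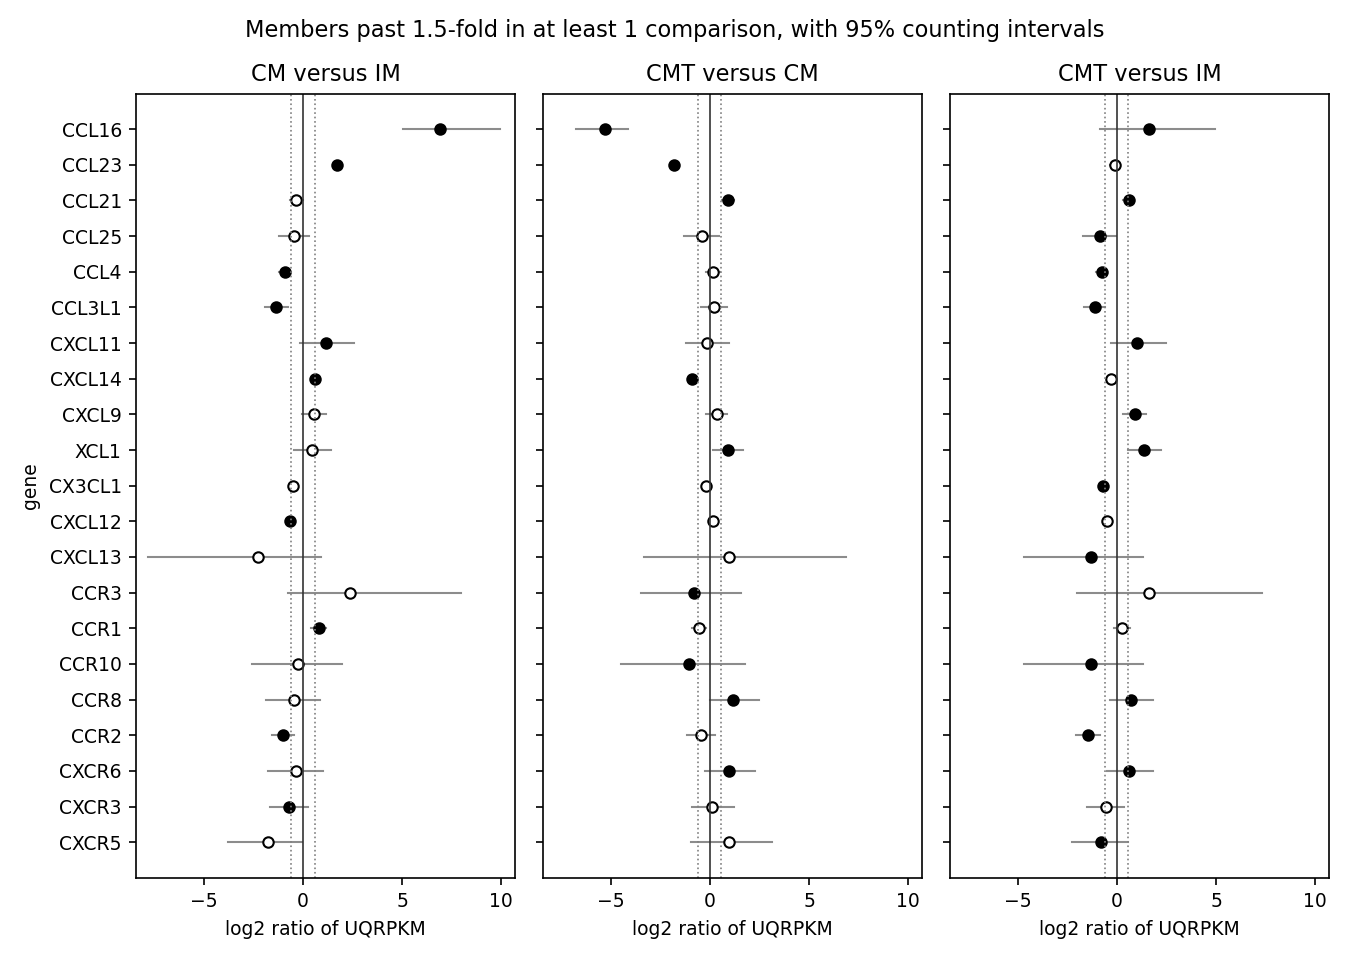
Log2 ratios of UQRPKM for the 21 members past 1.5-fold in at least 1 of the 3 comparisons, with exact 95% counting intervals as bars. Filled points are called in that comparison, open points are not, and dotted lines mark 1.5-fold. CCL16 and CCL23 lie far right in CM versus IM and far left in CMT versus CM, while the bars of CXCL13, CCR3 and CCR10 span 0 in all 3 panels.

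In CMT versus CM, 4 members were called higher and 5 lower of 34. The higher ones were CCL21, XCL1, CCR8 and CXCR6, and the lower ones were CCL16, CCL23, CXCL14, CCR10 and CCR3. This was 11.8% and 14.7% of the members, beside 9.53% and 9.97% of all 14098 mRNA genes. With an interval clear of 0 the counts were 2 and 3, or 5.88% and 8.82%, beside 5.94% and 6.46% of all mRNA genes. The median log2 ratio of the members was -0.05, beside -0.02 for all.

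CCL21, a ligand of CCR7 made by lymphatic endothelium and lymphoid stroma, had 275, 219.8 and 417 UQRPKM, from 180, 137 and 267 reads. CMT was the highest library, with a log2 ratio of 0.92 (0.62 to 1.23) over CM and 0.60 (0.32 to 0.88) over IM. The other CCR7 ligand, CCL19, had its lowest value in CMT, with a log2 ratio of -0.33 (-0.52 to -0.14) in CMT versus IM. CCR7 itself had 13.5, 9.53 and 10.9 UQRPKM, and none of its 3 intervals excluded 0. LYVE1, a marker of lymphatic vessels, had 202, 178 and 234 UQRPKM. Its log2 ratio in CMT versus CM was 0.40 (0.25 to 0.55), within 1.5-fold. PROX1, the lymphatic transcription factor, had 1.14, 1.63 and 2.33 UQRPKM from only 14, 19 and 28 reads. Its interval included 0 in CMT versus CM, -0.37 to 1.44, but not in CMT versus IM, 0.06 to 2.07.

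XCL1 (lymphotactin), made by activated T and NK cells, had 36.9, 50.9 and 95.02 UQRPKM, from 19, 25 and 48 reads. Its log2 ratio was 0.90 (0.17 to 1.66) in CMT versus CM and 1.37 (0.57 to 2.22) in CMT versus IM. XCR1, its receptor on cross-presenting dendritic cells, had 6.27, 7.40 and 8.39 UQRPKM, with intervals that included 0 in all 3 comparisons. CCR8, a receptor of regulatory and other T cells, had 13, 9 and 21 reads, and CXCR6, the receptor of CXCL16, had 12, 9 and 18. The intervals of both receptors included 0 in each comparison.

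The CMT library also held the muscle transcripts given above and more mesothelial ones. The mesothelium list, with 8 of 9 genes deposited and LRRN4 listed at 0, summed to 124, 235 and 549 UQRPKM. Of these, KRT8 had 51.2, 102 and 307. Of 6 genes compared, 4 were called higher and 0 lower in CM versus IM, beside 8.38% and 10.4% of all mRNA genes. In CMT versus CM 5 were called higher and 1 lower, beside 9.53% and 9.97%. The lower one was KRT18, with 28.7, 26.7 and 14.4 UQRPKM. The endothelium list, with 9 of 10 deposited, summed to 9615, 8426 and 8971. The part of these tissues in the CCL21 and XCL1 values was not tested.

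**Figure D3:**
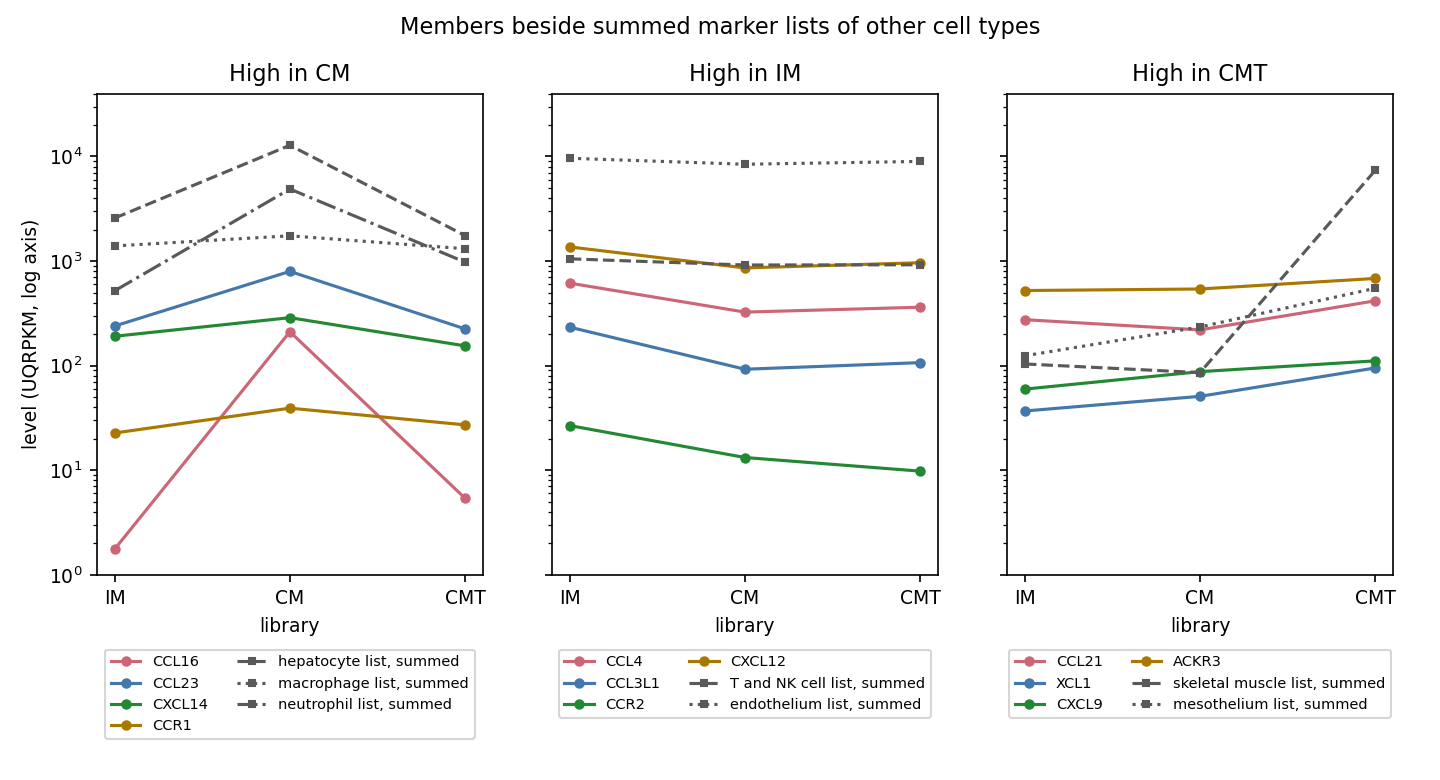
Levels of 12 members in the libraries IM, CM and CMT (log axis, UQRPKM), grouped by the library in which they are high, with the summed levels of marker lists in grey. The hepatocyte sum and the neutrophil sum, the latter set by S100A8, S100A9 and S100A12, are highest in CM. In IM, CM and CMT the T and NK cell sum is 1050, 917 and 921, and the endothelium sum 9615, 8426 and 8971. The skeletal muscle sum reaches 7346 in CMT. Lines join values of 1 gene or list and stand for no order in time.

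In CMT versus IM, 7 members were called higher and 8 lower of 36. CCL16, CCL21, CCR8, CXCL11, CXCL9, CXCR6 and XCL1 were the higher ones. CCL25, CCL3L1, CCL4, CCR10, CCR2, CX3CL1, CXCL13 and CXCR5 were the lower ones. This was 19.4% and 22.2% of the members, beside 8.81% and 11.9% of all 14151 mRNA genes. With an interval clear of 0 the members numbered 3 and 5, or 8.33% and 13.9%, beside 5.26% and 8.20%. The 3 were CCL21, CXCL9 and XCL1, and the 5 were CCL25, CCL3L1, CCL4, CCR2 and CX3CL1. The median log2 ratio was -0.24 for the members and -0.08 for all mRNA genes.

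CX3CL1 (fractalkine), a membrane-bound ligand of endothelium, had 153, 108 and 93.7 UQRPKM, from 736, 493 and 441 reads. IM was highest, and the log2 ratio was -0.51 (-0.68 to -0.34) in CM versus IM and -0.71 (-0.88 to -0.54) in CMT versus IM. Its receptor CX3CR1, found on monocytes and NK cells, had 42.5, 41.7 and 38.0 UQRPKM, with a log2 ratio of -0.03 (-0.37 to 0.31) in CM versus IM. CCL25, the ligand of the gut-homing receptor CCR9, had 39, 27 and 21 reads, or 7.43 UQRPKM in CM and 5.62 in CMT. Its log2 ratio in CMT versus IM was -0.86 (-1.70 to -0.06). CCR9 had 1, 2 and 1.

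The remaining called members rested on few reads. CXCL13, which guides B cells, had 5, 1 and 2 reads in IM, CM and CMT, and its receptor CXCR5 had 14, 4 and 8. Both had a log2 ratio of 0.96 in CMT versus CM and negative ones in CMT versus IM, -1.29 (-4.69 to 1.32) for CXCL13 and -0.78 (-2.24 to 0.57) for CXCR5. In CM versus IM the interval of CXCR5, from -3.80 to -0.07, excluded 0, but its 0.57 UQRPKM in CM lay below the minimum. CCR10 had 5, 4 and 2 reads, and CCR3, the eosinophil receptor, had 1, 5 and 3. The B cell list, with 11 of 12 genes deposited, summed to 176 UQRPKM in IM and 198 in CMT, with CM below both. For CXCL13, CCR10 and CCR3 differences were not detectable at this depth.

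Several members that were called in no comparison reached 50 UQRPKM in a library. CXCL2, a ligand of the neutrophil receptor CXCR2, had 97.3, 86.7 and 80.2 UQRPKM, and CXCR2 had 5.08, 4.69 and 4.35. CCL14, CCL19, CCL2, CCL5, CXCL10, CXCR4 and ACKR3, given above, were also of this kind. A further 11 members had reads but lay lower, up to 42.7 UQRPKM for CCL8. CCL22 had 4 or 5 reads per library, CCL27 had 3, 0 and 3, and CCL17 had 1, 1 and 0. CCL1 had 1 read in CM alone, and AMCF-II, a porcine neutrophil attractant, had 2, 5 and 0 reads. The 5 members CCL11, CCL20, CCL28, CCR4 and CCR6 were listed at 0 in every library, but RELB and GNAI1, which many cells use, were listed at 0 too, so a 0 does not show absence.

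Of the 33 members with 1 UQRPKM or more in every library, CCL16, CCL23 and CXCL14 exceeded both other libraries by 1.5-fold or more in CM. These 3 were 9.09% of the members, beside 3.48% of all 13858 mRNA genes. None was lower in CM than in both others, beside 4.23% of all. IM was highest by this measure for CCL3L1, CCL4 and CCR2, again 9.09%, beside 4.22%, and lowest for CCL16 and CXCL11, 6.06%, beside 3.54%. CMT was highest for CCL21, CCR8, CXCR6 and XCL1, 12.1%, beside 3.84%, and lowest for CCR10 alone, 3.03%, beside 4.88%. These patterns rest on fold alone. The intervals of CCL16 in CMT versus IM, -0.87 to 4.96, and of CXCL11 in both comparisons with IM included 0. So did those of CCR8, CXCR6 and CCR10 in each comparison. Over all comparisons 21 of 38 members were called at least once, 55.3%, beside 34.1% of all 14656 mRNA genes.

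The 3 comparisons share libraries, so these counts are not independent of each other. With thin reads a fold of 1.5 is reached more easily, and 9 of the members with reads had under 10 in every library. Without CCL16 and CCL23, chosen after their values were seen, the summed level of the CC ligands was 5022, 4034 and 4123 UQRPKM, against 5264, 5041 and 4353 with them.

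**Figure D4:**
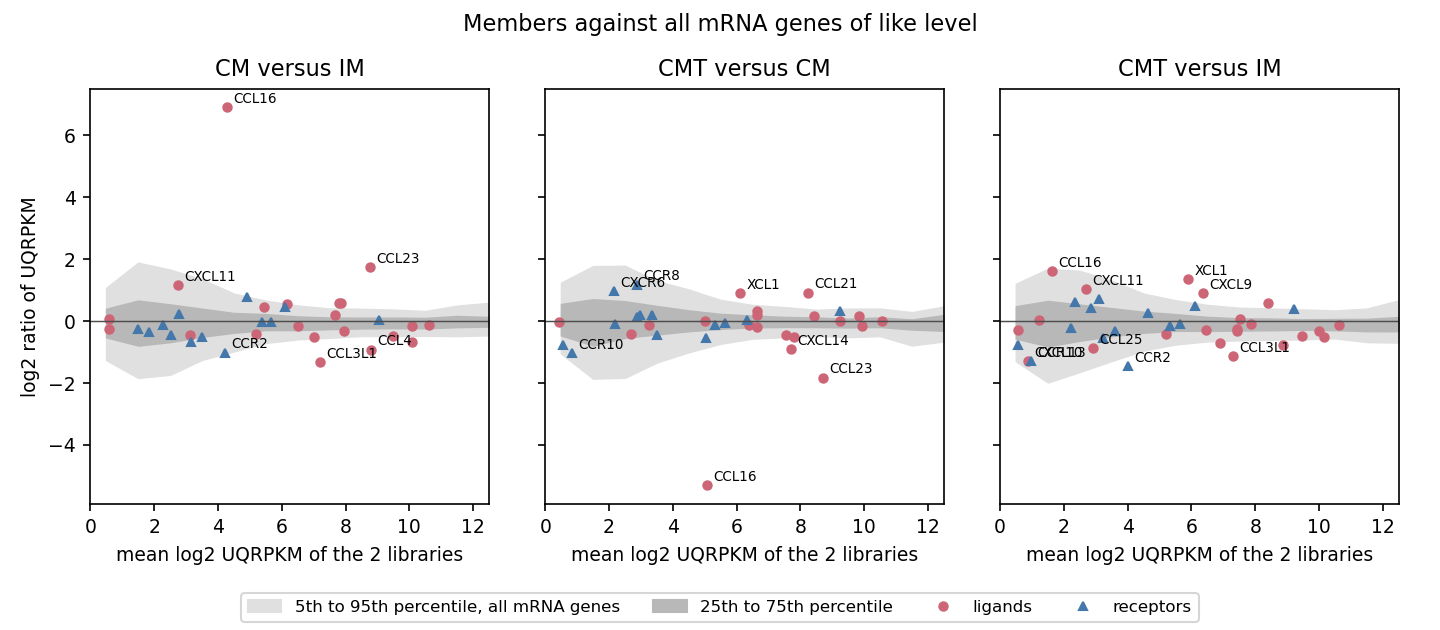
Log2 ratio of UQRPKM for each member with 1 UQRPKM or more in both libraries, against the mean log2 UQRPKM of the pair, over the 5th to 95th (light grey) and 25th to 75th (dark grey) percentile range of all mRNA genes of like level. Ligands are red circles and receptors blue triangles, and 10 of 34 members lie outside the light range in CM versus IM, 6 of 34 in CMT versus CM and 9 of 36 in CMT versus IM. CCL16 and CCL23 lie furthest outside in the first 2 panels, and of the receptors CCR2 lies outside in CM versus IM, CCR2 and ACKR3 lie outside in CMT versus IM, and CCR10, counted among the 9, lies on the edge.

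Chemokine genes deposited under other names were followed as well, although the rule does not take them. By RefSeq synonyms, CCRL1 is ACKR4, DARC is ACKR1, CCBP2 is ACKR2, SR-PSOX is CXCL16 and IL8 is CXCL8. CCRL1, an atypical receptor that removes CCL19, CCL21 and CCL25, had 1074, 1490 and 956 UQRPKM, from 2413, 3191 and 2105 reads. CM was highest, with a log2 ratio of 0.47 (0.40 to 0.55) over IM and a CMT versus CM ratio of -0.64 (-0.72 to -0.56) that passed 1.5-fold. DARC, the atypical receptor of venules and red cells, had 858, 886 and 869 UQRPKM, and all 3 of its intervals included 0.

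CCBP2, a scavenger of inflammatory CC ligands, had 87.3, 70.5 and 70.2 UQRPKM. SR-PSOX, a membrane-bound ligand of CXCR6, had 377, 325 and 341 reads, with intervals that included 0 throughout. CCRL2, which presents chemerin, had 13.3, 25.4 and 19.4 UQRPKM and was called higher in CM versus IM, with a log2 ratio of 0.93 (0.30 to 1.59). CMKLR1, the chemerin receptor, had 106, 76.3 and 64.6, and RARRES2, which encodes chemerin, was listed at 0. PPBP, a CXC ligand stored in platelets, had 0, 129 and 26 reads. Against the 3 reads that a count of 0 allows per library, its measured CM level was at least 45.1-fold that of IM, and the exact interval, which also covers the error of the CM reads, had a lower limit of 5.18 on the log2 scale. PF4, the other platelet CXC ligand, had 1 read, in CM, and IL8 had 2 reads, in CM.

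Genes that act downstream of the receptors were followed as a list. Of the 36 listed genes of chemokine signalling, 31 were deposited and 29 could be compared. In CM versus IM, 1 was called higher and 0 lower, beside 8.38% and 10.4% of all mRNA genes. In each of the other comparisons 1 was called higher and 2 lower. Their median ratio of CM to IM was -0.13 on the log2 scale, beside the -0.06 of all mRNA genes. GNAI2, the main inhibitory G protein of leukocytes, had 2819, 2348 and 2064 UQRPKM. PIK3CG, the phosphoinositide kinase activated by G proteins, had 21.0, 33.1 and 21.4 UQRPKM from 30, 45 and 30 reads and was the gene called higher in CM, although its interval, -0.04 to 1.37, included 0. RGS16, which ends G protein signals, had 96.4, 76.7 and 49.2, and RGS1, of the same family, had 30.0, 20.1 and 31.7. GNAI1 was listed at 0.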

How the data were processed

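Each library came from total RNA pooled in equal amounts over the pigs of a group and read from 1 end on the Ion Proton. After quality filtering, the authors aligned reads by MapSplice on the Sscrofa 10.2 assembly and deposited RPKM values scaled by the upper quartile (UQRPKM). The counting tool, the annotation and strand handling are not given in the sources used here.

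A deposited RPKM value equals reads multiplied by 100000 and divided by the upper quartile and the gene length. The ratios of upper quartiles between libraries were set from the most frequent ratios of values. The shortest length up to 120000 bases that gave whole reads in all libraries was used, with a relative tolerance of 2e-08. It was found for 100% of 20838 genes above 0. Reads that share a common factor are underestimated by it. The step was tested on simulated data.

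Groups were taken from the sample titles. With 1 library per group no test was run, and the DEGSeq test of the methods was left out because it compares libraries, not conditions. Log2 ratios use no pseudocount, and their 95% Clopper-Pearson intervals come from the recovered reads. Genes with 1 UQRPKM or more in both libraries were compared at 1.5-fold. Every member called in a comparison or at 50 UQRPKM or more in a library was to be named with its values, and some genes that enter the counts are not reported here. The members and gene lists were chosen with earlier results of these data known. Gene positions are not given, since the gene table (RefSeq, Sscrofa 11.1) is of another build, and it was used for names and neighbours only. No sequences are shown. Alternatives were another fold, minimum, pseudocount or scaling. Python 3.11.15, SciPy 1.17.1, NumPy 2.4.6 and pandas 2.3.3 were used.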

Additional observations from a re-analysis of the deposited data

How the results depend on the processing

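No paired analysis was possible because each group has 1 library. Leaving out a replicate was not possible for the same reason. A fold of 2 in place of 1.5 left 3 members higher and 2 lower between CM and IM. It left 1 and 3 between CMT and CM, and 3 and 4 between CMT and IM. Requiring a counting interval clear of 0 left 2 higher and 3 lower members between CMT and CM, and 3 and 5 between CMT and IM. Without a minimum value, 8 members were higher in CM versus IM. With at least 10 reads over both libraries, 3 members were lower in CMT versus CM. For another fold, minimum value or read limit, the share of all mRNA genes was not computed. The counts of members at those settings therefore have no background beside them. Scaling by total mRNA reads moved the median log2 ratio of the members to 0.0042 in CMT versus CM, which reversed its sign, and to -0.12 in CMT versus IM. That scaling shifts all log2 ratios, by 0.06 for CM over IM, 0.05 for CMT over CM, and 0.11 for CMT over IM. The 57 log2 ratios of called members stayed within their counting intervals with a pseudocount of 1 and with scaling by total UQRPKM. The latter shifts log2 ratios by only 0.020 for CM over IM, 0.024 for CMT over CM and 0.044 for CMT over IM. These shifts are too small to take any of the ratios out of its interval, so that outcome was fixed beforehand. With scaling by total mRNA reads, single ratios were not checked. Genes under 10 reads are limited by depth, and variation between pigs could not be measured in any gene.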

Other observations

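Genes that process or hold chemokines were listed as well, 20 in all, of which 18 were deposited and 15 had 1 UQRPKM or more in both CM and IM. In CM versus IM, 4 were called lower and 0 higher, beside 10.4% and 8.38% of all mRNA genes. In CMT versus CM, 3 were called higher and 0 lower, beside 9.53% and 9.97%. SDC4, a heparan sulfate proteoglycan of the cell surface, had 2041, 1314 and 2196 UQRPKM (IM, CM and CMT), from 1493, 916 and 1574 reads. SDC3, of the same family, had 294, 173 and 221 UQRPKM. DPP4, a peptidase that trims the N-terminus of CXCL12 and CXCL10, had 14.3, 8.81 and 18.8 UQRPKM from 51, 30 and 66 reads. MMP9, a matrix protease, had 58, 19 and 42 reads. These 4 were the genes called lower in CM versus IM, and all had their lowest value in CM. EXT1 and EXT2, which build heparan sulfate, stayed within 1.5-fold in every comparison. So did SDC2 and MMP2, the latter with 5364, 4611 and 5564 UQRPKM.

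The order of genes in RefSeq (Sscrofa 11.1) held 45 of the 46 members under the same name, and CCL23 was the one not matched. CCL14 and CCL16 are next to each other there, with log2 ratios of -0.14 and 6.90 in CM versus IM. CCL4 and CCL3L1 lie with 1 gene between them, and both were lower in CM and CMT than in IM. CCR1, CCR3 and CCR2 follow each other, and CCR1 was called higher and CCR2 lower in CM versus IM. The annotated spans of XCR1 and CCR1 overlap in that assembly.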
